A study of Mus musculus with 24 samples.

Results

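Mandibular prominences of mouse embryos that lack p63 were compared between embryonic day 11 (E11) and embryonic day 12 (E12). The members are the arrays titled E12 p63-/- (3) and E11 p63-/- (3), which are 6 of the 24 arrays of the series, and gene-level differences were taken over the 12698 genes detected on the arrays. The series measured single-embryo mandibular prominences, not pooled, on Illumina mouse bead arrays at 4 stages (E10 to E13) in p63-/- and p63+/- embryos, with 3 embryos of different litters in each of 8 groups. All embryos belonged to the strain B6.129S7-Trp63tm2Brd/J, so the p63-/- embryos carried the targeted Trp63 allele on both chromosomes in every cell, and the p63+/- littermates, which serve for comparison, carried it on 1. No other allele or treatment is named in the labels, and every animal in the series thus had at least 1 targeted allele. Each stage was hybridised on a slide of its own, so that stage and slide cannot be told apart in the E11 to E12 difference.

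The mandibular prominence is the part of the first pharyngeal arch that forms the lower jaw, its teeth and part of the tongue. It consists of neural crest mesenchyme around a core of cranial mesoderm that yields the jaw muscles, with tongue myoblasts, vessels and nerves moving in, and is covered by ectoderm on the outside and by endoderm towards the throat. Epithelial signals such as Shh and Fgf8 act on the mesenchyme beneath, which patterns teeth and skeleton. The transcription factor p63 is needed for stratified epithelium, and null mice are known for a missing epidermis, truncated limbs and defects of the face.

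Levels below are normalized log2 intensities, on which a difference of 1 is a 2-fold change. Values in sets of 3 are embryos 1, 2 and 3 in that order, and ± gives the standard error (SE) of a log2 difference with 3 embryos in each group. The 6 arrays detected 43.5% to 47.5% of the 45281 probes, and their pairwise correlation over genes was 0.982 to 0.992 within a stage and 0.964 to 0.990 between the stages. The jaw patterning factors Dlx5, Dlx6 and Hand2 were detected on all 6 arrays, which is a limited check of the tissue label. Values of Hox genes, which belong to the same check, are given further below. Dlx5 stood at 7.35, 8.16 and 8.50 at E11 and 8.40, 7.79 and 8.32 at E12, Dlx6 at 9.16, 9.49 and 9.48 at E11 and 9.31, 8.83 and 9.34 at E12, and Hand2 at 9.71, 9.63 and 9.67 at E11 and 9.67, 9.29 and 10.06 at E12. Trp63 itself was still detected on every array, at 9.87, 9.89 and 9.03 at E11 and 9.59, 9.11 and 9.33 at E12, and the E12 minus E11 difference of -0.25 ± 0.24 did not pass (limma, adjusted p = 0.494). Its level was lower than in the heterozygotes by a log2 difference of -1.28 at E11 (limma, adjusted p = 0.0131) and -1.08 at E12 (limma, adjusted p = 0.0655), and whether its probe lies within the targeted exons could not be read from the sources, so the probe is a limited check of genotype. Xist, the transcript that marks cells with 2 X chromosomes, was high in p63-/- embryos 1 and 3 and low in embryo 2 at both stages. The sexes were thus balanced between E11 and E12 in p63-/- embryos. In p63+/- embryos Xist stood at 5.64, 11.28 and 5.22 at E11 and 11.78, 11.49 and 11.70 at E12, so the sexes were not balanced there.

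The 3 embryos of a stage did not lie at the same point between E10 and E13. When each array was placed between the mean E10 and the mean E13 heterozygote, set to 0% and 100%, over the 6771 genes that differed between those groups, the E11 p63-/- embryos lay at 23.4%, 9.55% and 19.5%. The E12 p63-/- embryos lay at 56.8%, 65.9% and 34.1%, so that embryo 3 at E12 was nearest to E11. The heterozygotes, which were on the same slides, showed a like spread, with 19.7%, 9.19% and 27.9% at E11 and 57.0%, 63.9% and 40.9% at E12. Embryo 3 was also the E12 array nearest to the E11 mean for 1240 of the 1836 genes that passed the test (67.5%). Values without it are given for genes detected at both stages where they move a fold by over 1.5 times.

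**Figure D1:**
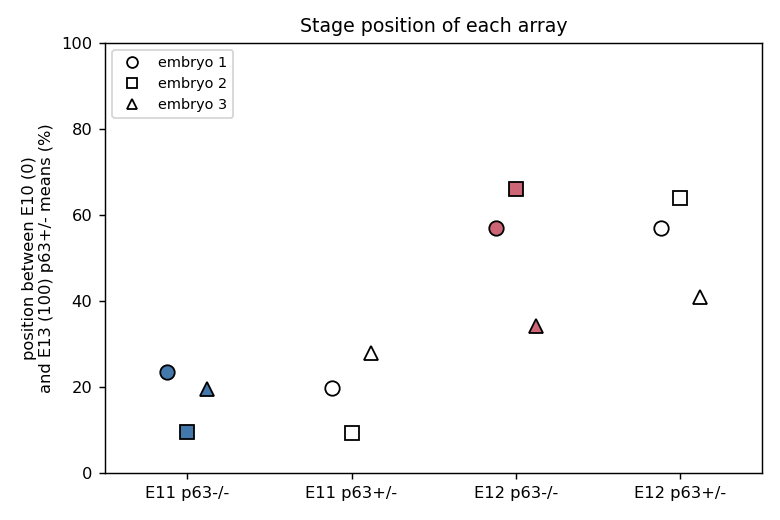
Position of each E11 and E12 array on the line from the mean E10 to the mean E13 p63+/- prominence, in percent, over 6771 genes (1 symbol per embryo, filled for p63-/-, open for p63+/-). Embryo 3 at E12 sits at 34.1% in p63-/- and 40.9% in p63+/-, below the other E12 embryos and above all E11 embryos.

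Of the 12698 genes, 1836 (14.5%) differed between E12 and E11 at an adjusted p under 0.05 in limma, of which 944 (7.43% of those tested) were higher and 892 (7.02%) lower at E12. These shares of all genes are the background for every list count below. A change of at least 2-fold was less even, with 212 genes higher (1.67%) and 83 lower (0.654%), and these counts were 46 and 10 with the authors' processed values, 86 and 24 without background correction and 130 and 50 with a larger offset. The median log2 difference over all genes was -0.01. Without regard to the test, all E12 embryos lay above all E11 embryos for 2005 of the 12698 genes and below them for 2244. Of the 1836 passing genes 1711 had no overlap. Among passing genes detected on at least 2 arrays of each stage, the 12 highest differences included 7 muscle genes (Myog, Myl1, Actn2, Tnnc1, Myl4, Actc1 and Myh8) and 3 matrix genes (Ogn, Dcn and Col1a1), and the 12 lowest included Mt2, Mt1, Hemgn, Shh and Sall4. The spread against which each gene was tested came from all 24 arrays. With the 6 compared arrays alone 0 genes passed in limma, 3546 had an unadjusted p under 0.05, and the lowest adjusted p was 0.062. Leaving out 1 array changed the count of higher genes to 121 without E11 embryo 2, 126 without E12 embryo 2, 408 without E12 embryo 1 and 1170 without E12 embryo 3, and the count of lower genes to 104, 147, 377 and 1078. In all, 173 genes (89 higher and 84 lower) passed in each of the 6 fits that left out 1 array. Of the 140 passing genes chosen for naming, 28 kept their call in all 6 of these fits, 110 lost it without E11 embryo 2, 103 without E12 embryo 2, 67 without E12 embryo 1 and 5 without E12 embryo 3, and none changed sign.

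The factors that commit cells to muscle rose. Myod1 and Myog are the basic helix-loop-helix factors that commit myoblasts and switch on their differentiation. Myod1 stood at 6.69, 6.27 and 6.83 at E11 and 9.04, 8.90 and 7.82 at E12, a log2 difference of 1.99 ± 0.35 (limma, adjusted p = 0.0049). Myog went from 6.45, 5.36 and 5.80 at E11, where 2 of 3 arrays detected it, to 9.37, 9.22 and 7.24 at E12, a difference of 2.74 ± 0.45 or 6.68-fold (limma, adjusted p = 0.00384). The groups did not overlap for either gene, as for 1711 of the 1836 passing genes. Embryo 3 was the lowest of the E12 embryos in both, and both kept their call in each fit without 1 array. Without embryo 3 at E12 the Myog difference was 3.43, and 4 list genes passed, against 2 without E12 embryo 1, E12 embryo 2 or E11 embryo 2. Mef2c, a MADS-box partner of these factors, rose from 8.57, 8.50 and 8.42 to 9.65, 9.73 and 8.83, a difference of 0.91 ± 0.23 (limma, adjusted p = 0.018). A second, dimmer probe of Myog gave a smaller value of 0.70. These 3 were the members that passed among 11 measured genes of muscle specification, whose median log2 difference was 0.51, and 0 fell, where 7.43% of all genes rose. Msc (musculin), a repressor made by branchial arch myoblasts, was higher by 0.83 ± 0.28 and missed the threshold (limma, adjusted p = 0.0537), and Tcf21, its arch mesoderm partner, differed by -0.06 ± 0.29 (limma, adjusted p = 0.912). In bulk tissue more muscle cells and more RNA per muscle cell cannot be told apart, and the same holds for the other cell types below.

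**Figure D2:**
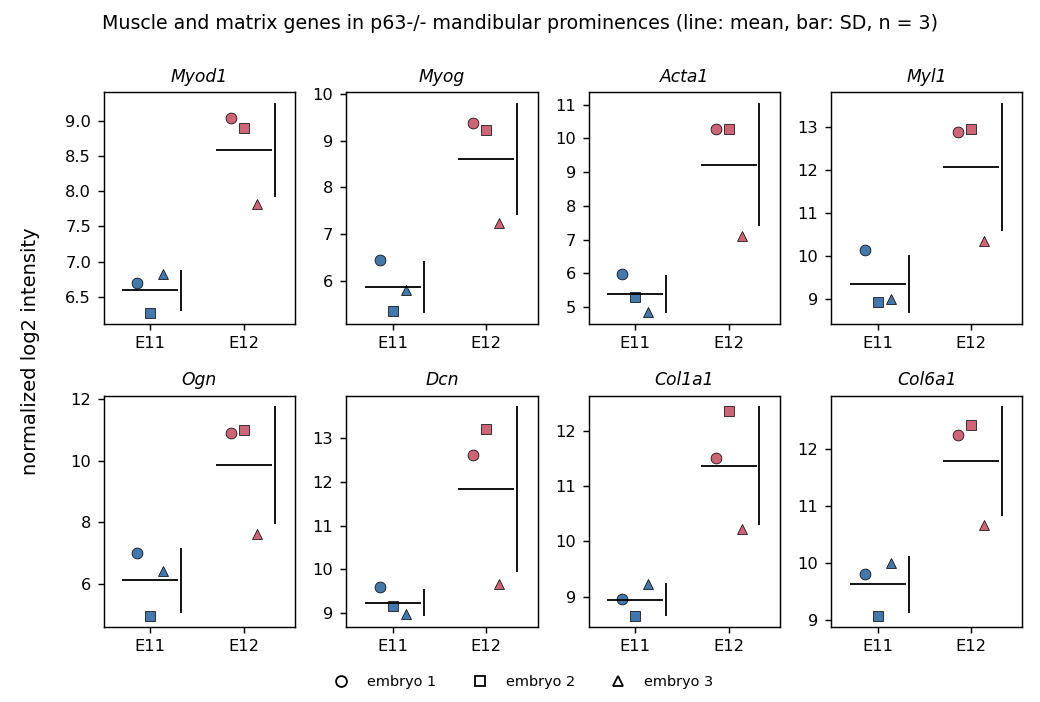
Normalized log2 intensity of 8 genes in each p63-/- embryo at E11 (blue) and E12 (red), 3 embryos per stage, with the mean (line) and SD (bar); the vertical scale differs between panels. In each panel the E12 embryos lie above the E11 embryos, and embryo 3 is the lowest at E12, for Myl1 at 10.35 against 12.90 and 12.97.

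Contractile genes rose too. Of 33 measured genes of the sarcomere and of muscle excitation, 21 rose and 0 fell, where 7.43% of all genes rose, and the list's median log2 difference was 1.37. Acta1, skeletal muscle actin, stood at 5.97, 5.31 and 4.87 at E11, where 1 of 3 arrays detected it, and at 10.29, 10.27 and 7.12 at E12, at least 10.9-fold higher when E11 values are raised to the detection level (difference as measured 3.84 ± 0.66, limma, adjusted p = 0.0049). Its call held in each fit without 1 array. Myl1, the fast alkali light chain of myosin, stood at 10.14, 8.93 and 8.99 at E11 and 12.90, 12.97 and 10.35 at E12, or 6.58-fold higher (log2 difference 2.72 ± 0.67, limma, adjusted p = 0.015), and its 2 other probes gave 2.37 and 1.93. Embryo 3 at E12, at 10.35, was only just above the highest E11 embryo at 10.14. Actn2, the alpha-actinin of the Z disc, stood at 7.73, 7.29 and 7.24 at E11 and 10.84, 10.97 and 8.40 at E12, a difference of 2.65 ± 0.56 (limma, adjusted p = 0.00882). Dimmer probes of Actn2 gave 2.72 and 0.28. Tnnc1, the slow and cardiac troponin C, rose by a log2 difference of 2.64 ± 0.60, Myl4, the embryonic and atrial light chain, by 2.61 ± 0.57, Actc1, the cardiac actin that early skeletal muscle uses, by 2.49 ± 0.54, Myh8, the perinatal myosin heavy chain, by 2.43 ± 0.52, and Tnni1, slow troponin I, which 1 of 3 E11 arrays detected, by at least 4.1-fold. With E12 embryo 3 left out the log2 differences were 4.90 for Acta1, 3.58 for Myl1, 3.49 for Actn2, 3.53 for Tnnc1, 3.54 for Myl4, 3.15 for Actc1 and 3.15 for Myh8. The sarcomere list's mean level was 6.76 to 7.18 in the E11 embryos and 7.43 to 8.89 in the E12 embryos. The list had 24 passing genes without E12 embryo 3, against 7 without E11 embryo 2, 12 without E12 embryo 1 and 5 without E12 embryo 2.

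The promoters of 3 contractile genes with the largest rises are shown because E-boxes (CANNTG) include the sites that Myod1 and Myog are known to bind. The pattern is broader than those sites, and its middle bases were not told apart in the counts below. Each is the 300 bases from 250 before to 50 after the start of the gene, 5′ to 3′ on the gene's own strand, as RefSeq gives them on GRCm38.p6, and capitals mark every E-box.
Acta1, chr8:123894726-123895025, minus strand: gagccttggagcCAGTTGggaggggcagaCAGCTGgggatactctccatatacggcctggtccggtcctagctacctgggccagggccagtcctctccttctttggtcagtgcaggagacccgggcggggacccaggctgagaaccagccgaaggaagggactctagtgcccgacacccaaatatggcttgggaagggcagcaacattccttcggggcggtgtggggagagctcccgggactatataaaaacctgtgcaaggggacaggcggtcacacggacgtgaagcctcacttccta
Myl1, chr1:66945007-66945306, minus strand: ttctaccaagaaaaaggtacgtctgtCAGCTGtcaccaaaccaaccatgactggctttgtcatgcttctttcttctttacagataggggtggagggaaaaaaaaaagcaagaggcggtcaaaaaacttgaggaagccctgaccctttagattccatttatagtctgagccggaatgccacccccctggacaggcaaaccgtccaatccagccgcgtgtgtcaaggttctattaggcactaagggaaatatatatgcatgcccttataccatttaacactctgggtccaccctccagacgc
Actn2, chr13:12340683-12340982, minus strand: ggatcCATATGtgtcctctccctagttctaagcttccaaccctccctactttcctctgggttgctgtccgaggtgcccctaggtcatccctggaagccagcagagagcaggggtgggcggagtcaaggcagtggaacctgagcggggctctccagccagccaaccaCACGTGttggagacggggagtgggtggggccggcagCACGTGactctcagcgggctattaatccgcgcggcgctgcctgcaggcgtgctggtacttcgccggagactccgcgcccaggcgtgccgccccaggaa
Acta1 held 2 E-boxes, Myl1 1 and Actn2 3. RefSeq promoters were matched for 26 of the 33 listed genes (28 promoters), and 23 of the 28 (82.14%) held an E-box on either strand, a motif that reads the same on both. Among the 20 promoters of genes that rose, 19 (95.0%) held one, with a median of 2, whereas 72.31% of all 32851 promoters of this length held one, with a median of 1. A MEF2-type sequence (CTA and TAG with any 4 bases between) was found in 5 of the 28 (17.86%), in 2 of the 20 (10.0%) and in 3.69% of all promoters, and in none of the 3 printed. A match describes the letters in this window and is not a measured binding site.

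Within the same list, Chrna1, Chrng, Rapsn and Musk of the acetylcholine receptor and its clustering rose, and the receptor's beta subunit Chrnb1 did not pass (difference 0.65 ± 0.34, limma, adjusted p = 0.199). Chrna1, the receptor's alpha subunit, stood at 6.48, 5.33 and 5.32 at E11 and 9.02, 8.93 and 6.42 at E12, at least 4.51-fold higher (limma, adjusted p = 0.0112), with 1 of 3 E11 arrays detecting it. Chrng, the fetal gamma subunit, rose by 1.89 ± 0.40 from 7.04, 6.86 and 7.15 to 9.35, 9.47 and 7.90 (limma, adjusted p = 0.00882). Rapsn, the rapsyn that clusters the receptor, rose by 1.23 ± 0.20 (limma, adjusted p = 0.00386) and kept its call in each fit without 1 array. Musk, the kinase that starts that clustering, was detected on 0 E11 arrays (4.95, 4.93 and 4.68) and 2 E12 arrays (5.92, 5.78 and 5.12), at least 1.01-fold higher (limma, adjusted p = 0.0259).

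Matrix genes of connective tissue rose as well. Ogn (osteoglycin, also called mimecan) is a small leucine-rich proteoglycan that binds collagen fibrils. It stood at 6.99, 4.94 and 6.42 at E11 and 10.90, 11.02 and 7.63 at E12, a log2 difference of 3.74 ± 0.82 or 13.3-fold (limma, adjusted p = 0.00929), the highest difference of any named gene detected on at least 2 arrays of each stage. Its groups did not overlap, and its 2 dimmer probes gave 1.38 and 1.19. Without E12 embryo 3 the Ogn difference was 4.85, and its call was lost without E11 embryo 2 or E12 embryo 2. Dcn, decorin, went from 9.59, 9.16 and 8.98 to 12.63, 13.21 and 9.67 (difference 2.59 ± 0.72, limma, adjusted p = 0.0242), with embryo 3 at E12 barely above the E11 embryos and a difference of 3.67 without it. Lum (lumican) rose by 2.18 ± 0.67 (3.08 without E12 embryo 3) and Bgn (biglycan) by 0.86 ± 0.22. Kera (keratocan) and Prelp, which 1 of 3 E11 arrays detected, rose by at least 4.58-fold and 2.05-fold. The Prelp call (limma, adjusted p = 0.042) was lost in 10 of 18 other settings, among them the authors' processed values. Of 9 measured genes of this proteoglycan family 6 rose and 0 fell, with a median of 1.39, and 7, 1, 0 and 0 passed without E12 embryo 3, E12 embryo 1, E12 embryo 2 and E11 embryo 2.

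Collagens and other fibrous matrix genes rose. Col1a1, the alpha 1 chain of type I collagen and counted with the bone genes below, stood at 8.95, 8.64 and 9.24 at E11 and 11.51, 12.37 and 10.23 at E12, a difference of 2.43 ± 0.68 (limma, adjusted p = 0.0254). Col1a2, its partner chain, rose by 1.72 ± 0.44 (limma, adjusted p = 0.0168), and Col3a1, the type III chain of pliable tissues, by 1.25 ± 0.31 (limma, adjusted p = 0.0154). Col6a1, a chain of the microfibrillar collagen around cells, stood at 9.81, 9.06 and 10.00 at E11 and 12.24, 12.42 and 10.67 at E12 (difference 2.16 ± 0.45, limma, adjusted p = 0.00844), and Col6a2 rose by 1.87 ± 0.46. Lox, the oxidase that cross-links collagen and elastin, rose by 1.53 ± 0.42, and Eln, elastin, by 1.36 ± 0.36. A second, dimmer probe gave -0.07 for Col6a1 and -0.03 for Eln. Among 18 measured genes of other collagens and matrix proteins 14 rose and 0 fell, with a median of 0.98, and the list's mean level was 9.51 to 9.81 at E11 and 10.18 to 11.00 at E12. The count was 13 without E12 embryo 3, 8 without E12 embryo 1, 1 without E12 embryo 2 and 1 without E11 embryo 2.

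Some tendon and bone genes rose. Of 6 measured tendon genes 3 rose and 0 fell (median 0.96): Tnc, tenascin C, stood at 8.50, 7.79 and 8.36 at E11 and 10.44, 10.82 and 9.30 at E12 and differed by 1.97 ± 0.45 (limma, adjusted p = 0.0104), Thbs2 (thrombospondin 2) by 1.47 ± 0.45, and Mkx, the tendon homeobox factor mohawk, by 0.99 ± 0.28. A dimmer probe of Tnc gave -0.06. The tendon count was 4 without E12 embryo 3, 1 without E12 embryo 1 and 0 without E12 embryo 2 or E11 embryo 2. Among 12 measured bone genes 3 rose and 0 fell (median 0.49), and all 3 encode matrix that other connective tissue makes too: Col1a1, Col1a2 and Sparc (osteonectin, 0.94 ± 0.30). Sp7 (osterix), which osteoblasts need, stood at 7.81, 7.52 and 8.11 at E11 and 10.08, 9.14 and 8.08 at E12 and missed the threshold (difference 1.29 ± 0.44, limma, adjusted p = 0.0564), and so did Alpl, the bone alkaline phosphatase (difference 1.27 ± 0.44, limma, adjusted p = 0.0588). The bone count was 5 without E12 embryo 3, and without E12 embryo 1, E12 embryo 2 or E11 embryo 2 0 passed.

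Of 19 measured cartilage genes 2 rose and 1 fell, a share near the 14.5% of all genes, with a median of -0.04. With E12 embryo 3 left out 4 rose and 2 fell with a median of 0.20, and without E12 embryo 1, E12 embryo 2 or E11 embryo 2 0 rose and 0 fell. Sox9, the master factor of chondrocytes, stood at 12.61, 13.01 and 13.20 at E11 and 13.63, 13.70 and 13.31 at E12 (difference 0.61 ± 0.26, limma, adjusted p = 0.113), and Col2a1, the chief cartilage collagen, at 12.03, 12.58 and 12.30 at E11 and 11.93, 12.19 and 12.54 at E12 (difference -0.08 ± 0.29, limma, adjusted p = 0.874). The stages overlapped for Col2a1, whereas for Sox9 all E12 embryos lay above all E11 embryos, as for 2005 of all 12698 genes. Acan, aggrecan, which marks mature cartilage, was detected on 0 E11 arrays and 1 E12 array. Matn4 (matrilin 4), a matrix protein also made outside cartilage, rose from 4.86, 4.96 and 5.80 (detected on 1 of 3 arrays) to 8.59, 9.30 and 6.15 and was at least 5.18-fold higher (limma, adjusted p = 0.0126), and Hapln1, the link protein, fell by 0.96 on the log2 scale (limma, adjusted p = 0.0286). The probes of Wwp2, a ubiquitin ligase counted as the other riser, disagreed: the brighter gave 0.62 ± 0.18 and the dimmer -0.57, past the threshold in the opposite direction (limma, p adjusted over probes 0.0427).

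**Figure D3:**
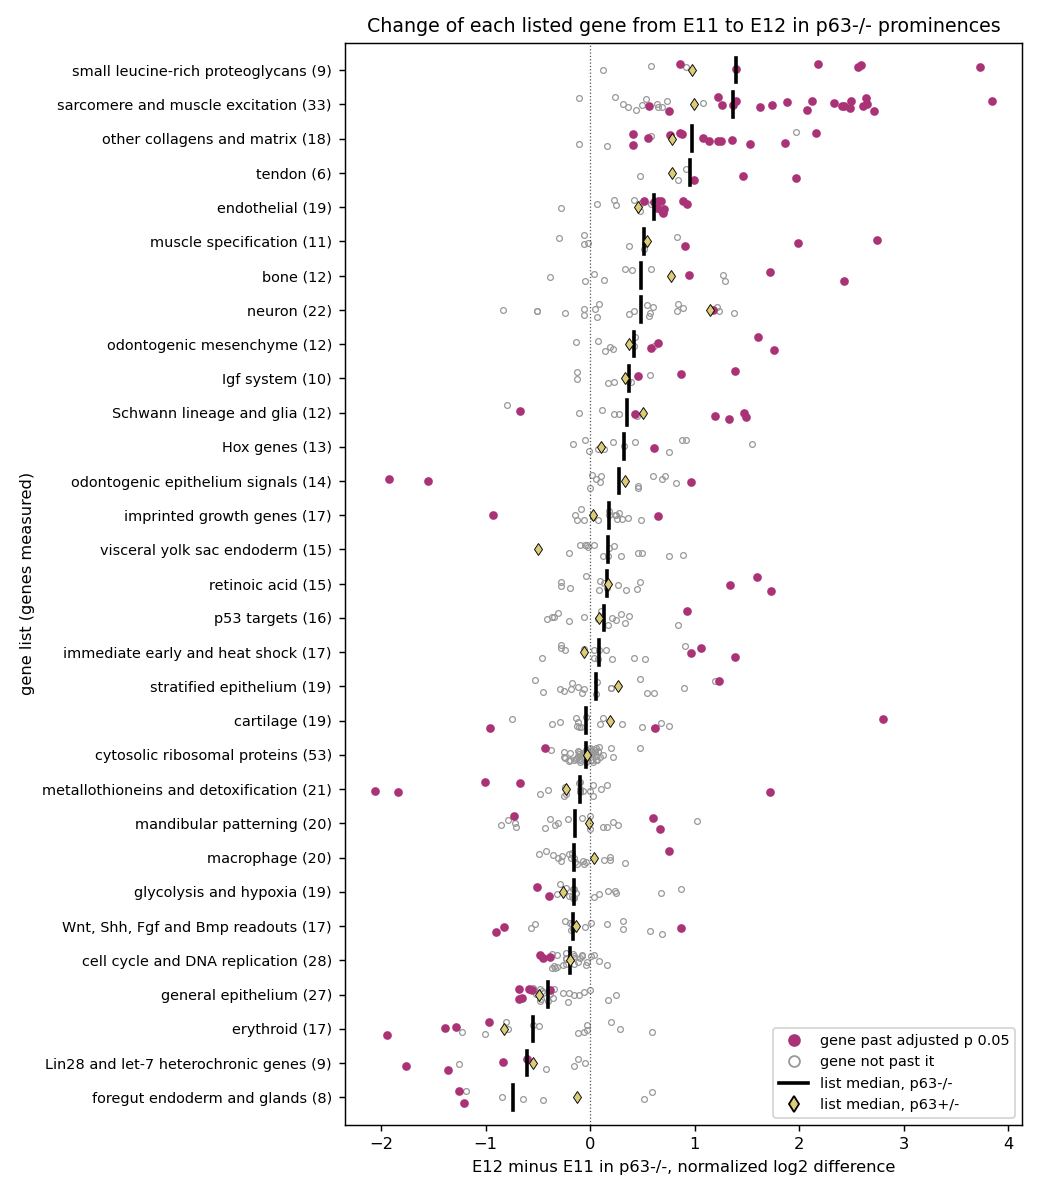
Log2 difference E12 minus E11 in p63-/- prominences for each measured gene of 31 lists (filled where the gene passed at an adjusted p under 0.05, open where not), with the list median in p63-/- (bar) and in p63+/- (diamond). Proteoglycan (1.39) and sarcomere (1.37) lists have the highest medians, and foregut (-0.74) and Lin28 (-0.60) lists the lowest.

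Transcription factors and secreted factors outside the lists also rose. The nuclear factor I family, whose members promote late differentiation in several tissues, has 4 genes, and all 4 were measured and rose: Nfix from 8.02, 7.08 and 8.37 to 10.91, 10.96 and 9.26 (difference 2.55 ± 0.53, limma, adjusted p = 0.00818), Nfia, which 1 of 3 E11 arrays detected, by at least 2.68-fold, Nfib by 1.49 ± 0.33 and Nfic by 0.94 ± 0.17. Nfix was reached by rank, and the other 3 were added after their values had been seen. Nfia and Nfic kept their call in each fit without 1 array, and Nfix and Nfib did not. Gdf10, a BMP-like ligand of the TGF-beta family, stood at 5.96, 4.92 and 5.17 at E11, with 1 of 3 arrays detecting it, and at 9.19, 10.29 and 6.95 at E12, at least 8.17-fold higher (limma, adjusted p = 0.0049). Tgfb2 rose by 1.15 ± 0.22 and Tgfb3 by 1.10 ± 0.22, and both ligands and Gdf10 held in each fit without 1 array. Cbln4, a secreted synapse organiser of the cerebellin family, went from 6.25, 5.19 and 5.44 (detected on 1 of 3 arrays) to 10.98, 9.53 and 7.03 and was at least 9.87-fold higher (limma, adjusted p = 0.0132). Corin, the protease that activates atrial natriuretic peptide in the heart, rose from 7.43, 5.00 and 7.40 to 9.47, 9.56 and 8.54 (difference 2.58 ± 0.53, limma, adjusted p = 0.00813). E11 embryo 2, which did not detect it, stood below the other E11 embryos.

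A further set of genes came up from background. Chodl (chondrolectin), a lectin-like membrane protein of muscle and motor neurons, was detected on 0 E11 arrays (5.30, 4.69 and 4.80) and on 2 E12 arrays (10.28, 9.41 and 5.45), which makes it at least 6.89-fold higher at E12 (limma, adjusted p = 0.0257). E12 embryo 3, which did not detect it, lay close to the E11 embryos. Tbx15, a T-box factor of skeletal and muscle development, was at least 2.88-fold higher, Adcy8, an adenylate cyclase whose stages overlapped, at least 2.46-fold, Nxnl2, a thioredoxin-like protein, at least 2.41-fold, Ehd2, a caveola-associated ATPase, at least 2.27-fold, and Tnn (tenascin N) at least 2.19-fold (limma, adjusted p from 0.0049 to 0.0244). Nxnl2 and Ehd2 held in each fit without 1 array.

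Among tooth and jaw mesenchyme genes, Osr2 and Inhba rose most. In the odontogenic mesenchyme list 4 of 12 measured genes rose and 0 fell, with a median of 0.42. Osr2, the zinc finger factor that restrains tooth formation on the tongue side, stood at 11.44, 10.92 and 11.44 at E11 and 13.49, 13.07 and 12.05 at E12 (difference 1.60 ± 0.39, limma, adjusted p = 0.0145). Inhba, the activin A subunit that incisors and lower molars need, rose from 6.71, 5.12 and 6.77 to 8.71, 8.10 and 7.09 (difference 1.76 ± 0.49, limma, adjusted p = 0.0249). Pax9, which 1 of 3 E11 arrays detected and whose stages overlapped, rose by at least 1.18-fold, and Fgf10 by 0.58 ± 0.16. The early tooth field genes Msx1 (difference 0.19 ± 0.19), Barx1 (0.42 ± 0.21) and Bmp4 (0.14 ± 0.18) did not pass (limma, adjusted p = 0.505, 0.179 and 0.624). Of 20 measured jaw patterning genes 2 rose and 1 fell, a share near the 14.5% of all genes, with a median of -0.14. Prrx1, the limb and face mesenchyme homeobox factor, rose by 0.67 ± 0.16 and Alx4 by 0.60 ± 0.20. Edn1, the endothelin that gives the lower jaw its identity, fell from 6.96, 7.62 and 6.78 to 6.00, 6.37 and 6.81 (difference -0.73 ± 0.23, limma, adjusted p = 0.0429). Of the odontogenic mesenchyme genes 4 rose without E12 embryo 3, and without E12 embryo 1, E12 embryo 2 or E11 embryo 2 0, 1 and 0 did. Of the patterning genes 2 rose and 4 fell without E12 embryo 3, and 0 passed without E12 embryo 1, E12 embryo 2 or E11 embryo 2. Hox genes, which the first arch mesenchyme lacks, had 1 of 13 measured that rose and 0 that fell (Hoxb3, detected on 0 E11 and 2 E12 arrays). This share was near the 7.43% of all genes that rose. Their median was 0.33 and their mean level 5.19 to 5.29 at E11 and 5.32 to 6.13 at E12. Hoxa2 stood at 6.16, 4.71 and 5.62 at E11 and 5.32, 7.73 and 8.10 at E12 without passing (limma, adjusted p = 0.228).

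Shh and Fgf8, signals of the epithelium, fell. Shh, the hedgehog ligand of oral and pharyngeal epithelium, stood at 8.93, 9.69 and 8.86 at E11 and 6.57, 6.66 and 8.48 at E12, a difference of -1.92 ± 0.49 or 3.8-fold lower (limma, adjusted p = 0.0165), and its second probe gave -1.51. Embryo 3 at E12, at 8.48, was close to the lowest E11 embryo at 8.86, and without it the difference was -2.55. The hedgehog readouts Hhip and Ptch1 also fell. Hhip, the decoy receptor that hedgehog signalling induces, stood at 6.59, 7.15 and 6.85 at E11 and 5.63, 5.94 and 6.31 at E12 (difference -0.91 ± 0.17, limma, adjusted p = 0.00545) and held in each fit without 1 array. Ptch1, the receptor, fell from 10.00, 10.25 and 10.11 to 9.08, 8.78 and 10.02, with embryo 3 at E12 among the E11 embryos (difference -0.83 ± 0.24, limma, adjusted p = 0.027). The Ptch1 call was lost without E11 embryo 2, E11 embryo 3, E12 embryo 1 or E12 embryo 2, and the Shh call without E11 embryo 2, E12 embryo 1 or E12 embryo 2. Fgf8, the growth factor of the oral and proximal jaw ectoderm, stood at 9.43, 10.55 and 9.73 at E11 and 8.24, 7.76 and 9.06 at E12, a difference of -1.55 ± 0.42 (limma, adjusted p = 0.0223). In the list of odontogenic epithelium signals these 2 ligands fell and Irx1, a homeobox factor detected on 0 E11 and 3 E12 arrays, rose, among 14 measured (median 0.28), where 14.5% of all genes passed. Of 17 measured target genes that report Wnt, Shh, Fgf or Bmp activity 1 rose, the Fgf feedback inhibitor Spry4, and 2 fell, Hhip and Ptch1 (median -0.17). This share was near the 14.5% of all genes. A dimmer probe of Ptch1 gave 0.11. Of the epithelium signals 3 rose and 2 fell without E12 embryo 3, and 0 fell without E12 embryo 1, E12 embryo 2 or E11 embryo 2.

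**Figure D4:**
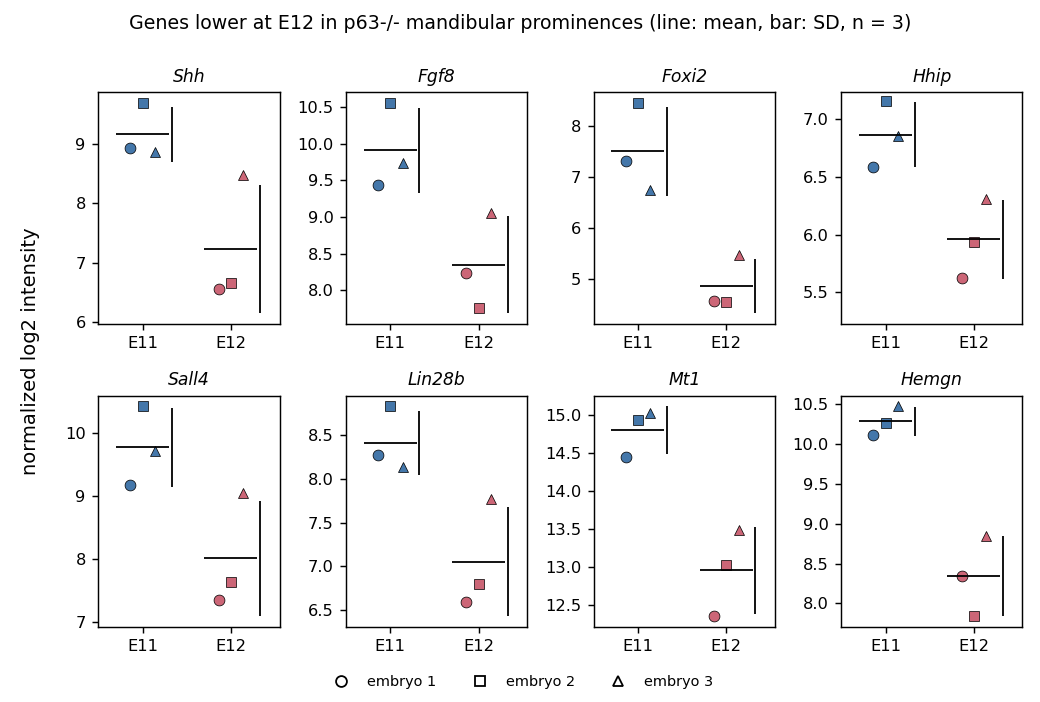
Normalized log2 intensity of 8 genes that were lower at E12, in each p63-/- embryo at E11 (blue) and E12 (red), 3 embryos per stage, with the mean (line) and SD (bar); the vertical scale differs between panels. All E12 embryos lie below all E11 embryos in each panel, and for Shh embryo 3 lies at 8.48, above the other E12 embryos at 6.57 and 6.66.

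The forkhead genes Foxi2, Foxq1, Foxa2 and Foxe1 fell. Foxi2, a forkhead factor of early craniofacial ectoderm, stood at 7.31, 8.45 and 6.74 at E11 and was detected on 0 E12 arrays (4.57, 4.54 and 5.47), at least 4.03-fold lower (limma, adjusted p = 0.00231), and kept its call in each fit without 1 array. Foxq1 fell from 7.35, 8.22 and 7.65 to 5.41, 5.81 and 7.05, with 2 of 3 E12 arrays detecting it (difference -1.65 ± 0.36, limma, adjusted p = 0.00941). Foxa2, the forkhead factor of gut endoderm and floor plate, which 1 of 3 E12 arrays detected, was at least 1.69-fold lower and Foxe1, the thyroid and palate forkhead factor, fell by 1.21 on the log2 scale, and these were the 2 of 8 measured foregut and gland genes that fell, with 0 that rose and a median of -0.74 (limma, adjusted p = 0.00915 and 0.0188). Of all genes tested 7.02% fell. Without E12 embryo 3, 4 foregut genes fell and 1 rose. The count of foregut genes that fell was 1 without E12 embryo 1 and 0 without E12 embryo 2 or E11 embryo 2. Otx2, the head homeobox factor, stood at 7.08, 8.08 and 6.11 at E11 and 5.00, 5.03 and 5.91 at E12 and was at least 2.81-fold lower (limma, adjusted p = 0.00671), with 3 E11 arrays and 1 E12 array detecting it. C2cd4a fell from 7.89, 8.11 and 8.05 to 4.97, 6.24 and 7.73 (difference -1.70 ± 0.44), and Foxd2os, transcribed beside the mesenchymal factor Foxd2, from 8.77, 8.74 and 8.59 to 6.06, 6.46 and 8.80, where embryo 3 at 8.80 lay above the E11 embryos. Without that embryo the differences of C2cd4a and Foxd2os were -2.41 and -2.44. A dimmer probe of C2cd4a gave -0.10.

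Some structural epithelial genes fell. In the general epithelium list 6 of 27 measured genes fell and 0 rose, with a median of -0.41 and a mean level of 8.68 to 9.15 at E11 and 8.38 to 8.77 at E12, so the ranges overlapped. Ap1m2, the epithelial sorting adaptor, fell by 0.68, St14 (matriptase) by 0.68, Lsr, an angulin of tricellular junctions, by 0.65, Ocln (occludin) by 0.58, Grhl2, the grainyhead factor of simple epithelia, by 0.55 and Cldn9 (claudin 9) by 0.39 on the log2 scale (limma, adjusted p from 0.0142 to 0.0485). Cdh1, E-cadherin, stood at 10.02, 10.18 and 9.98 at E11 and 9.60, 10.40 and 9.85 at E12 and did not pass (difference -0.11 ± 0.23, limma, adjusted p = 0.79). The general epithelium count was 4 without E12 embryo 3, and without E12 embryo 1, E12 embryo 2 and E11 embryo 2 it was 1, 0 and 0. Stratified epithelium, the tissue that p63 specifies, gave 1 riser and 0 fallers among 19 measured genes (median 0.06), below the 14.5% of all genes. The riser was Fxyd3, a regulator of the sodium pump, at 6.16, 5.20 and 5.03 at E11 and 6.78, 6.92 and 6.37 at E12, with 1 of 3 E11 arrays detecting it, at least 1.8-fold higher (limma, adjusted p = 0.0134). Krt5, the basal keratin, was detected on 0 E11 arrays and 1 E12 array, its partner Krt14 stood at 8.63, 9.64 and 9.03 at E11 and 10.06, 8.92 and 7.97 at E12 (limma, adjusted p = 0.884), and Krt15 at 7.52, 6.44 and 7.23 at E11 and 8.48, 8.36 and 7.95 at E12 (limma, adjusted p = 0.0595).

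Some genes of the Lin28 and let-7 timing pathway, which keeps embryonic cells in an early state until let-7 microRNAs accumulate, fell. Among 9 measured 4 fell and 0 rose, with a median of -0.60. Sall4, a zinc finger factor of early progenitors, stood at 9.18, 10.42 and 9.71 at E11 and 7.35, 7.63 and 9.06 at E12, a difference of -1.76 ± 0.42 (limma, adjusted p = 0.0128), and its second probe gave -1.73. Lin28b, the RNA-binding protein that blocks let-7 maturation, went from 8.27, 8.83 and 8.14 to 6.60, 6.80 and 7.77 (difference -1.36 ± 0.35, limma, adjusted p = 0.0179), and its paralog Lin28a fell by 0.84 and Arid3a by 0.60 on the log2 scale. In Sall4 and Lin28b the E12 embryo 3 was the highest of its stage, and without it 5 genes of the list fell, against 0 without E11 embryo 2, 0 without E12 embryo 1 and 1 without E12 embryo 2. Trim71, a let-7 target, stood at 7.83, 8.48 and 8.15 at E11 and 5.73, 7.29 and 7.68 at E12 and missed the threshold (limma, adjusted p = 0.0661). Igdcc3, a surface protein of the same immunoglobulin family as the neogenin receptors, fell by 1.70 on the log2 scale from 11.08, 12.29 and 11.59 to 8.61, 10.46 and 10.79 (limma, adjusted p = 0.0463). Cell cycle genes gave 3 fallers and 0 risers among 28 measured, where 7.02% of all genes fell, with a median of -0.19. Tyms (thymidylate synthase) fell by 0.48, Cdc6, which licenses replication origins, by 0.45 and Cdk1, the mitotic kinase, by 0.39 on the log2 scale. Pcna differed by -0.36 ± 0.15 (limma, adjusted p = 0.104). Dimmer probes of Cdc6 and Cdk1 gave 0.25 and 0.03. The cell cycle count was 6 without E12 embryo 3, 2 without E12 embryo 1 and 0 without E12 embryo 2 or E11 embryo 2.

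Some genes of red cell precursors fell, and genes of vessels rose. Among 17 measured erythroid genes 4 fell and 0 rose, with a median of -0.55 and a mean level of 12.10 to 12.46 at E11 and 11.50 to 11.90 at E12. Hemgn (hemogen), a nuclear protein of red cell precursors, stood at 10.11, 10.27 and 10.48 at E11 and 8.34, 7.84 and 8.85 at E12, a difference of -1.94 ± 0.50 (limma, adjusted p = 0.018). A dimmer probe of Hemgn gave -0.25 and did not pass (limma, p adjusted over probes 0.328). Gata1, the master erythroid factor, fell by 1.39, Epor, the erythropoietin receptor, by 1.29 and Tfrc, the transferrin receptor that brings in iron, by 0.97 on the log2 scale. The globins did not pass: Hba-a1 lay at 15.81, 15.81 and 15.84 at E11 and 15.84, 15.84 and 15.69 at E12 and Hbb-y, an embryonic beta globin, at 15.72, 15.79 and 15.79 at E11 and 15.74, 15.71 and 15.67 at E12, at the top of the intensity range. Slc38a5, an amino acid transporter outside the list, went from 10.83, 11.21 and 11.37 to 9.19, 9.10 and 9.31 (difference -1.93 ± 0.43, limma, adjusted p = 0.00951). Of 19 measured endothelial genes 11 rose and 0 fell, with a median of 0.61 and a mean level of 8.42 to 8.88 at E11 and 8.97 to 9.30 at E12. Flt1, a VEGF receptor, stood at 8.51, 8.68 and 9.04 at E11 and 9.33, 10.12 and 9.56 at E12 (difference 0.92 ± 0.23, limma, adjusted p = 0.0156). Sox7, an early endothelial Sox factor, rose by 0.88 ± 0.17, the surface sialomucin Cd34 by 0.70 ± 0.19, Robo4, which steadies vessels, by 0.70 ± 0.18, and Cdh5, VE-cadherin, by 0.68 ± 0.16, whereas Pecam1 stood at 9.00, 8.49 and 8.72 at E11 and 8.95, 9.22 and 9.30 at E12 without passing (limma, adjusted p = 0.0987). Sox7 kept its call in each fit without 1 array. A second, dimmer probe of Cdh5 gave 0.30 and did not pass (limma, p adjusted over probes 0.213). The endothelial count was 9 without E12 embryo 3, 6 without E12 embryo 1 and 1 without E12 embryo 2 or E11 embryo 2, and the erythroid count 3, 0, 0 and 0. Of 20 macrophage genes 1 rose, C1qa, and 0 fell (median -0.15), where 14.5% of all genes passed.

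Some genes of nerve-associated glia rose. Of 12 measured genes of the Schwann lineage and glia 5 rose and 1 fell (median 0.35). Sox10, the neural crest factor of glia, stood at 8.96, 8.07 and 8.63 at E11 and 9.81, 10.73 and 9.59 at E12 (difference 1.49 ± 0.45, limma, adjusted p = 0.036). Ednrb, the endothelin receptor of crest-derived cells, rose by 1.48 ± 0.38, Ngfr, the p75 neurotrophin receptor, by 1.20 ± 0.25 and Gfra3, a receptor of the GDNF family that 1 of 3 E11 arrays detected, by at least 1.73-fold. Cdh19, a cadherin of Schwann cell precursors, passed near background, with 0 E11 and 2 E12 arrays detecting it. Embryo 2 was the highest E12 embryo for Sox10, Ednrb, Gfra3 and Ngfr. The probes of Mbp, myelin basic protein, disagreed: the brightest fell by 0.67 on the log2 scale, and the 2 dimmer ones gave 0.35 and 0.49 without passing. Of these 5 risers 0 passed without E12 embryo 2, 0 without E11 embryo 2 and 3 without E12 embryo 1. Of 22 neuron genes 1 rose, Syt1, and 0 fell, where 14.5% of all genes passed. The list's median of 0.49 stood beside a wide range of single genes, from -0.84 to 1.38. Genes of visceral yolk sac endoderm, the marker of stray extraembryonic tissue, gave 0 passing of 15 in limma, with 0 at an unadjusted p under 0.05, and their mean level was 5.90 to 6.53 at E11 and 5.84 to 7.41 at E12. Their median was 0.17, and -0.14 without E12 embryo 3. The test compared stage means, so it cannot tell whether a single embryo held such tissue.

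The metallothioneins Mt1 and Mt2, small zinc and copper binding proteins, fell, and Mt2 had the lowest difference among passing genes that were detected on all 6 arrays. Mt2 stood at 7.36, 7.96 and 8.26 at E11 and 5.93, 5.65 and 5.83 at E12, a difference of -2.06 ± 0.36 or 4.16-fold lower (limma, adjusted p = 0.0049). Mt1 stood at 14.44, 14.93 and 15.02 at E11 and 12.35, 13.03 and 13.48 at E12 (difference -1.84 ± 0.34, limma, adjusted p = 0.0053). All E12 embryos lay well below all E11 embryos, embryo 3 did not stand apart for Mt2, and both genes kept their call in each fit without 1 array. Within the list of metallothioneins and detoxification enzymes 4 of 21 fell, the others being Mt3, near background, and Gstt1, a glutathione transferase (7.72, 8.35 and 7.54 at E11 and 6.74, 6.60 and 7.26 at E12), and 1 rose, Cbr3, a carbonyl reductase (1.72 ± 0.37), with a median of -0.10. Of all genes 14.5% passed.

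Some Igf and retinoic acid genes rose. Igfbp3, an IGF binding protein, stood at 9.64, 9.83 and 9.80 at E11 and 11.46, 11.56 and 10.39 at E12 (difference 1.38 ± 0.26, limma, adjusted p = 0.00545), Igf1 rose by 0.87 ± 0.24 and Igfbp4 by 0.46 ± 0.14. These were the 3 risers of 10 measured genes of the Igf system, where 7.43% of all genes rose, with 0 fallers and a median of 0.38. Second, dimmer probes gave 0.36 for Igf1 and 0.27 for Igfbp4, and neither passed (limma, p adjusted over probes 0.262 and 0.201). The Igf count was 4 without E12 embryo 3, 2 without E12 embryo 1 and 1 without E12 embryo 2 or E11 embryo 2. Igf2 lay near the top of the intensity range at 15.56, 15.59 and 15.65 at E11 and 15.49, 15.48 and 15.45 at E12. Cyp26b1, the enzyme that clears retinoic acid, was detected on 0 E11 arrays (5.13, 4.87 and 4.67) and on 3 E12 arrays (6.65, 6.56 and 6.25), at least 1.85-fold higher (limma, adjusted p = 0.00273). Rxrg, a retinoid X receptor, rose by 1.73 ± 0.29 and Aldh1a2, which makes retinoic acid, by 1.34 ± 0.37. Thus 3 of 15 retinoic acid genes rose and 0 fell (median 0.17), where 14.5% of all genes passed and 7.43% rose. Igfbp3, Cyp26b1 and Rxrg held in each fit without 1 array.

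The remaining lists gave 1 to 3 calls each, where 14.5% of all genes tested passed in either direction. Of 17 imprinted growth genes 1 rose, Cdkn1c, a cell cycle inhibitor (0.65 ± 0.14), and 1 fell, Plagl1, detected on 0 E12 arrays and at least 1.5-fold lower, with a median of 0.18. A dimmer probe of Plagl1 gave -0.06. Among 17 immediate early and heat shock genes, which respond to handling of tissue, 3 rose and 0 fell (median 0.09): Klf4 by 1.38 ± 0.28, Hspa1a, detected on 0 E11 arrays, by at least 1.72-fold, and Egr1 by 0.96 ± 0.21. Plk2 was the 1 riser of 16 p53 targets, with 0 fallers (median 0.14). Glycolysis and hypoxia genes gave 2 fallers, Pdk1 (-0.50 ± 0.16) and Aldoa (-0.39 ± 0.10), and 0 risers of 19 (median -0.16), and a dimmer probe of Pdk1 gave 0.31. Without E12 embryo 3, 3 p53 targets rose, and 4 glycolysis genes fell and 2 rose. Without E12 embryo 2 or E11 embryo 2, 0 genes of either list passed. Of 53 cytosolic ribosomal protein genes 0 rose and 1 fell, Rps6 (-0.44 ± 0.12), with a median of -0.04.

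Other genes went down to background at E12. Besides Foxi2, Pklr, the liver and red cell pyruvate kinase, was at least 3.37-fold lower, from 6.50, 7.77 and 7.45 at E11 to 4.97, 5.05 and 5.19 at E12 with 0 E12 arrays detecting it (limma, adjusted p = 0.00813). Mrap, an accessory protein of melanocortin receptors, was at least 3.25-fold lower, Pdia2 at least 1.97-fold, Gpr50, a melatonin-related receptor, at least 1.93-fold and Spaca9 at least 1.81-fold. Nxpe2 (7.86, 8.38 and 8.36 at E11 and 6.43, 5.81 and 6.57 at E12) and Tlcd4 (7.71, 8.44 and 7.79 at E11 and 6.46, 5.60 and 6.43 at E12) had log2 differences of -1.93 ± 0.42 and -1.82 ± 0.43, with detection on all 6 arrays.

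The same step in heterozygotes gave 667 higher (5.25%) and 610 lower genes (4.8%). Of the 1836 genes that passed in p63-/- embryos, 1817 (99.0%) had the same direction in p63+/- embryos, against 82.4% of all genes tested. In all 787 passed in both in that direction, which is 42.9% of the p63-/- calls and 61.6% of the p63+/- calls, and 0 passed in opposite directions. The arrays of the genotypes differ but share the slides of their stage, so this likeness includes any slide effect. The sexes of the heterozygotes were not balanced between the stages. Their step, and the difference between the steps, thus include any effect of sex. A test of the difference between the steps passed for 0 genes (0%) in limma, with 224 genes at an unadjusted p under 0.05 and a lowest adjusted p of 0.567. The SE of that difference had a median of 0.22 over genes, against 0.156 for the p63-/- step, and it was larger for the muscle genes: Myog changed by 2.74 in p63-/- and 2.50 in p63+/- embryos (difference 0.24 ± 0.63, 95% interval -1.09 to 1.57), and Myl1 by 2.72 and 3.18 (difference -0.46 ± 0.95, 95% interval -2.45 to 1.53). Ogn changed by 3.74 and 4.15, Dcn by 2.59 and 2.07, Col1a1 by 2.43 and 1.49, Mt1 by -1.84 and -1.85, Sall4 by -1.76 and -1.63, and Hemgn by -1.94 and -2.06.

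**Figure D5:**
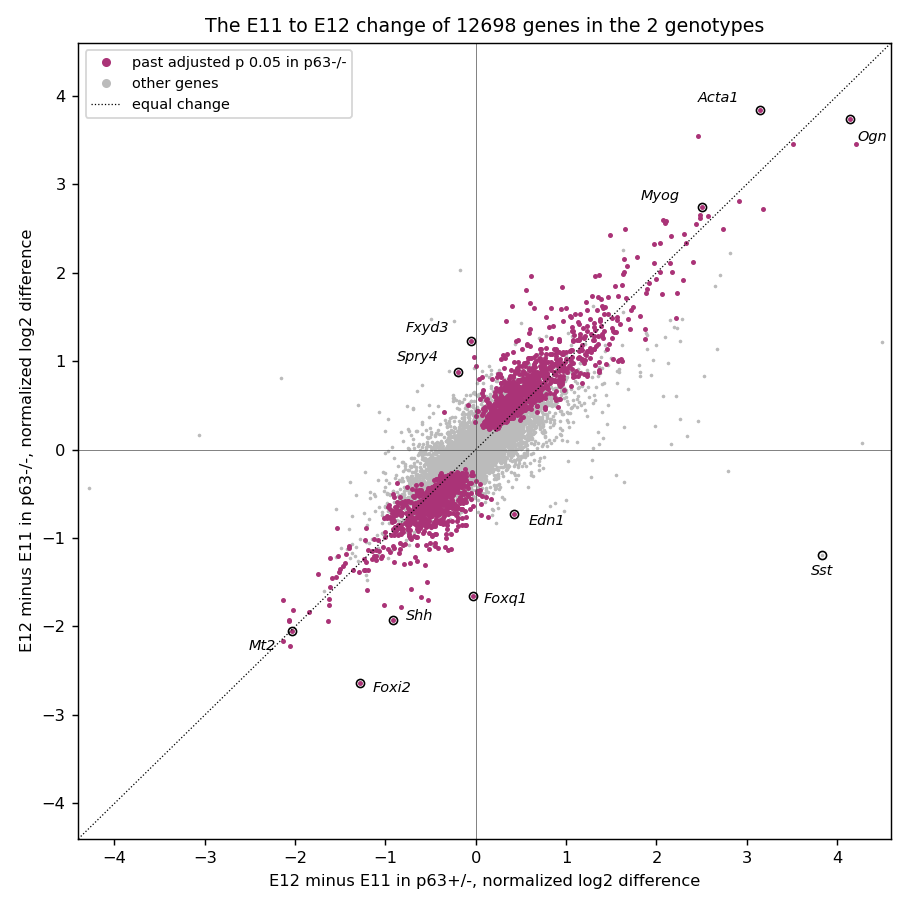
Log2 difference E12 minus E11 of each of 12698 genes in p63+/- (horizontal) and p63-/- (vertical) prominences, with genes that passed in p63-/- at an adjusted p under 0.05 in purple and equal change dotted. Acta1, Ogn, Myog and Mt2 lie near the dotted line, and Sst, Foxq1, Foxi2 (not detected in p63-/- at E12), Shh, Edn1, Spry4 and Fxyd3 lie away from it, none with a difference between genotypes that passed.

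Genes with small unadjusted p for a difference between the steps are given as values. Sst, the hormone somatostatin, stood at 10.30, 8.47 and 8.40 at E11 and 7.07, 8.10 and 8.43 at E12 in p63-/- and at 5.25, 5.37 and 5.72 at E11 and 7.92, 8.47 and 11.44 at E12 in p63+/- embryos, where 1 of 3 E11 arrays detected it, so that its change was -1.19 without p63 and 3.83 with 1 copy (difference -5.02 ± 0.95, limma, unadjusted p = 4.5e-05, adjusted p = 0.567). Spry4 stood at 6.35, 6.32 and 6.47 at E11 and 7.66, 6.91 and 7.19 at E12 in p63-/- and at 6.86, 6.93 and 6.99 at E11 and 6.71, 6.82 and 6.67 at E12 in p63+/- embryos (difference 1.07 ± 0.22, limma, unadjusted p = 9.7e-05, adjusted p = 0.618). Wnt3a, a Wnt ligand, stood at 5.26, 6.13 and 5.82 at E11 and 4.81, 5.29 and 5.03 at E12 in p63-/- embryos, where 0 E12 arrays detected it, and at 7.01, 5.84 and 6.98 at E11 and 7.96, 7.83 and 6.96 at E12 in p63+/- embryos. The difference between its steps, -1.67 ± 0.42 as measured, did not pass. In a separate comparison within E12, its level differed between genotypes (limma, adjusted p = 9.6e-05). For epithelial genes that fell without p63 the differences between the steps had both signs. Each positive one was smaller than its SE, and so were the negative ones of Grhl2 and Cldn9. Edn1 changed by -0.73 and 0.42 (difference -1.15 ± 0.33, 95% interval -1.83 to -0.46, limma, adjusted p = 1), Foxq1 by -1.65 and -0.04 (difference -1.61 ± 0.51, 95% interval -2.69 to -0.54), and Shh by -1.92 and -0.92 (difference -1.01 ± 0.69, 95% interval -2.45 to 0.43). The differences of other epithelial genes that fell were 0.06 ± 0.60 for Fgf8, 0.05 ± 0.28 for Ap1m2, 0.17 ± 0.22 for Lsr, 0.17 ± 0.24 for Ocln, 0.27 ± 0.31 for St14, -0.17 ± 0.22 for Grhl2 and -0.10 ± 0.18 for Cldn9. Those of the forkhead genes, as measured, were -1.35 ± 0.52 for Foxi2, -0.60 ± 0.39 for Foxa2 and -0.53 ± 0.45 for Foxe1. Adjusted over all genes none of these differences passed.

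The steps before and after E11 to E12 share arrays with it, so their values are set side by side without a comparison. In p63-/- embryos the E10 to E11, E11 to E12 and E12 to E13 log2 differences of Myl1 were 2.52, 2.72 and 2.10. For Dcn they were -0.05, 2.59 and 1.97, and for Col1a1 0.07, 2.43 and 1.63. Sall4 had -1.70, -1.76 and -2.16, and Fgf8 -0.86, -1.55 and -2.10. These 5 genes were detected on at least 2 arrays of each group, which Myog, Acta1, Ogn, Foxi2 and Hemgn were not.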

How the data were processed

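Total RNA of single prominences was hybridised on Illumina bead arrays, 1 embryo per array. The deposited table holds probe intensity before normalization with a detection p-value per probe, per the file headers. The authors' processed values are log2 values normalized between arrays, for which the submitters' processing notes name BeadStudio, lumi and RMA without versions or order, and they served as an alternative. Intensities of all 24 arrays were background-corrected and quantile-normalized with control information inferred from detection p-values (neqc, limma 3.58.1, R 4.3.3, offset 16). The filter kept 24233 of 45281 probes, those with a detection p under 0.05 on 3 or more arrays, and the probe with the highest mean stood for each gene (12698 genes). Dimmer probes with smaller or opposite differences are given for only some of the named genes. Of the 45281 probes 34885 have 1 gene symbol in the platform annotation, 18 several and 10378 none, and the last 2 kinds were not used.

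A model with 8 group means was fitted with empirical Bayes variances, with Benjamini-Hochberg adjustment over all genes and a threshold of 0.05. Where no array of a group, or 1 of 3, detected a gene, its fold is given only as a lower bound, against the higher of its own signal there and the lowest signal among detected probes. The number of arrays limits the precision. Members and lists were chosen with earlier results of these data known. Genes named were Trp63, the 12 highest and 12 lowest differences among passing genes detected on at least 2 arrays of both groups, up to 6 bounds in each direction, the 12 smallest p of the genotype difference and up to 5 passing members per list and direction (the 2 brightest where none passed). A selection of these is given. Other named genes were added after their values had been seen: Nfia, Nfib, Nfic, Gdf10, Cbln4, Otx2, Tgfb2, Tgfb3, Edn1, cilium genes, and list members given to show values that did not pass or lower-ranked members. The 31 lists hold 541 measured genes of 707 entries.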

Additional observations from a re-analysis of the deposited data

How the results depend on the processing

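Of 140 named calls, 112 were lost in at least 1 fit without 1 of the 6 compared arrays and 0 changed sign under any setting. Without E12 embryo 3 the sign changed for Krt14 (-0.12 to 0.39), Acan (-0.04 to 0.22) and Hba-a1 (-0.03 to 0.03), which had not passed, and for the medians of the cartilage (-0.04 to 0.20) and yolk sac lists (0.17 to -0.14). With the 6 compared arrays alone 0 genes passed in limma (0 higher, 0 lower, 0 at least 2-fold in either direction), with 3546 at an unadjusted p under 0.05. Array weights gave 1480 higher and 1537 lower genes and 131 at least 2-fold lower, and testing all detected probes gave 1388 lower. The counts of genes at least 2-fold higher and lower were 86 and 24 with quantile normalization without background correction, 130 and 50 with an offset of 50, and 46 and 10 with the authors' processed values. Leaving out 1 of the 6 compared arrays gave 121 to 1170 higher, 104 to 1078 lower, 46 to 392 at least 2-fold higher and 18 to 148 at least 2-fold lower genes. Leaving E10 p63-/- embryo 3 out of the shared fit gave 1223 higher and 1197 lower. Of the 1836 genes that passed, 1608 were also among the 2248 that passed without E12 embryo 3. With the replicate block, 974 genes were higher and 933 lower (216 and 92 at least 2-fold). Embryos of the same number at E11 and E12 deviated with correlations of 0.09, -0.06 and -0.03, and 2 of the 6 arrays correlated best with their own number, so the numbers do not pair E11 with E12. The p63-/- and p63+/- embryos of the same number had correlations of 0.41, 0.28 and 0.43 at E12 (6 of 6 arrays best with their own number) and 0.08, 0.20 and 0.07 at E11 (4 of 6). With a replicate block within each stage, added after seeing the data, 0 genes passed for the genotype difference in limma and 448 had an unadjusted p under 0.05. Over 25 other settings that difference passed for 0 genes, with 173 to 471 at an unadjusted p under 0.05 and a lowest adjusted p of 0.103. The cause of these shifts was not tested. Stage and slide cannot be told apart, signal over background limits genes near the detection level, and 26 of 140 named calls were lost with the authors' values.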

Other observations

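The genes Rsph1, Zmynd12, Dnal4 and Daw1 of the motile cilium were picked because they fell, and are given as values, with no count over other cilium genes. Rsph1, a radial spoke protein, stood at 6.18, 6.40 and 6.47 at E11 and 5.47, 5.19 and 5.60 at E12 (difference -0.93 ± 0.17, limma, adjusted p = 0.0053). Zmynd12 went from 5.71, 6.21 and 6.07 to 5.02, 5.17 and 4.92, Dnal4, a dynein light chain, from 5.62, 6.06 and 6.28 to 4.89, 4.91 and 4.84, and Daw1, a dynein assembly factor, from 5.20, 6.39 and 6.40 to 5.06, 5.13 and 4.85. With 0 E12 arrays detecting them, the fall was at least 1.43-fold for Zmynd12, 1.42-fold for Dnal4 and 1.42-fold for Daw1 (limma, adjusted p = 0.00307, 0.00307 and 0.0207). In p63+/- embryos the log2 changes of Rsph1, Zmynd12, Dnal4 and Daw1 were -0.80, -0.74, -0.42 and -0.69.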
